A study of Drosophila melanogaster with 54 samples.

Results

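The comparison concerns whole male fruit flies (Drosophila melanogaster) of the Mito-FLucDM-GFP 1copy strain reared at 29 °C and the same strain reared at 18 °C. Its members are 6 of the 54 RNA libraries of the series, 3 per temperature, chosen by strain and rearing temperature in the labels alone, and all genes of the expression table. The 3 libraries of this strain at 25 °C give the middle of the course. Every fly in these groups carried 1 copy of a transgene for FLucDM-GFP, a misfolding-prone form of firefly luciferase fused to green fluorescent protein and directed mainly to the mitochondria, and was 10 days old. Where another strain is set beside it, the same temperatures were used in Mito-FLucDM-GFP with 2 copies, in Cyto-FLucDM-GFP with 1 copy, whose protein stays mainly in the cytoplasm, and in w1118, the control without the transgene. All are males of the same age, with 3 libraries per group. The sources used here do not give the promoter that drives the transgene or the number of flies pooled per library. The expression table has no entry for the transgene, so its own level was not measured.

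Flies do not regulate their body temperature, so rearing temperature sets the pace of development, feeding and metabolism of the whole animal. Rearing in warmth differs from a heat shock: a short heat shock activates the transcription factor Hsf and with it the inducible chaperones, which hold or refold damaged proteins, whereas rearing temperatures act over the whole life. Mitochondria have chaperones of their own, among them Hsp60 and the mitochondrial Hsp70, and a misfolded protein in the matrix is met by these and by the matrix proteases.

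Levels are given in TPM, a share of all transcripts that the authors normalized for transcript length. The table holds 13926 genes, of which the 12555 that reached 1 TPM in at least 3 of the 54 libraries were tested. Between 12050 and 12143 genes stood at 1 TPM or more in each library of this strain, with 11.1% to 13.4% of the TPM in the top 10 genes. Across genes, which are not independent replicates, the Pearson correlation was 0.993 or more between libraries of the same temperature and 0.971 to 0.974 between 29 and 18 °C. The depth behind each value is unknown, because read counts cannot be recovered from TPM. Male reproductive genes were abundant, with 15430.0 to 18680.0 TPM summed over 45 testis genes at 29 °C and 17340.0 to 19010.0 TPM at 18 °C, while 22 ovary and eggshell genes summed to 56.6 to 65.9 TPM at 29 °C and 57.2 to 62.6 TPM at 18 °C. Single libraries stood apart in immune genes: library 1 at 18 °C and library 2 at 29 °C, as given beside those genes. The flies were taken whole, so fewer cells of a type and less RNA per cell cannot be told apart in any of the values.

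About as many genes were higher at 29 °C as were lower. Flies of all temperatures were 10 days old, so temperature itself and the pace of life that it sets cannot be told apart in these changes. Of the genes tested, 3267 (26.0%) were higher at 29 °C and 2873 (22.9%) were lower, as called by limma's moderated test with Benjamini-Hochberg adjustment at 0.05. Most changes were small: 265 of the higher and 174 of the lower genes changed at least 2-fold, and the median change over all genes was log2 0.017. Which side was larger depends on scaling, with 3069 higher and 3315 lower genes after quantile normalization and 3104 and 3216 with median-ratio size factors. It also turned without library 1 at 18 °C, with 2786 higher and 2910 lower. Without regard to any test, the 3 libraries at 29 °C lay all above the 3 at 18 °C for 3454 genes (27.5%) and all below for 2993 (23.8%). These shares are the background against which the counts of each gene group are read below.

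**Figure D1:**
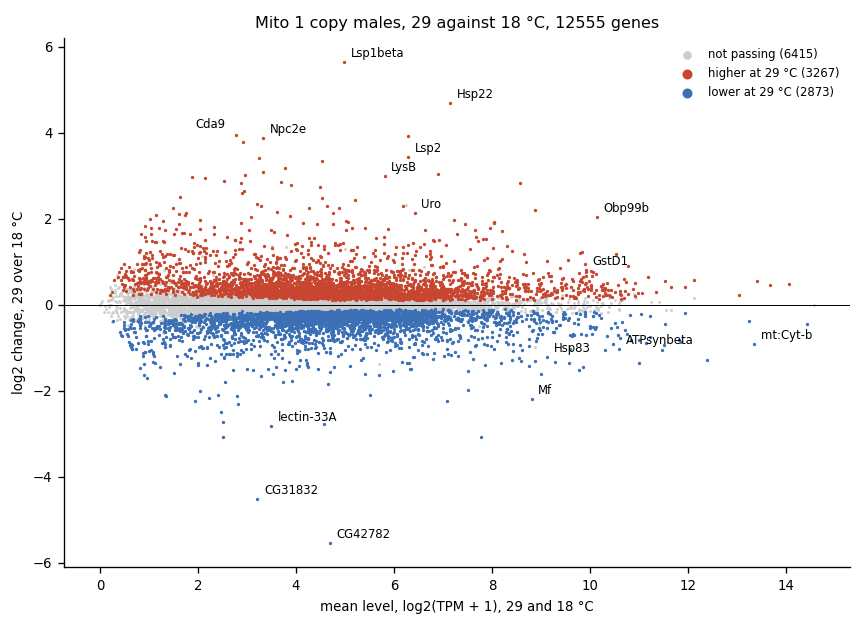
Each point is 1 of the 12555 genes tested, with its mean level at 29 and 18 °C as log2(TPM + 1) on the x axis and its log2 change at 29 over 18 °C on the y axis. Red points (3267) passed the test as higher at 29 °C, blue points (2873) as lower, and grey points did not pass; Lsp1beta lies highest and CG42782 lowest.

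Larval storage proteins were among the largest rises, the hexamerins that the fat body of the larva secretes into the blood as an amino acid reserve. Lsp1beta (2L, 898500 to 901316, build BDGP6 as for all positions) had 273, 199.9 and 199.8 TPM at 29 °C, against 3.34, 3.47 and 3.46 TPM at 18 °C. The change was log2 5.65 ± 0.24, adjusted p = 4.13e-22 (here and below ± after a log2 change is its standard error). Groups without overlap were a condition for naming the leading rises and falls, so this is no further result for them. Lsp2 (3L, 12129393 to 12131869) had 281, 250.3 and 233 TPM at 29 °C, against 27.7, 24.6 and 17.0 TPM at 18 °C (log2 3.43 ± 0.43, adjusted p = 9.48e-09). Lsp1alpha (X, 12490291 to 12492982) was less abundant, with 22.7, 13.9 and 8.94 TPM at 29 °C, against 1.03, 1.16 and 1.03 TPM at 18 °C (log2 2.87 ± 0.27, adjusted p = 7.47e-12). Among the yolk proteins, which females make in quantity, only Yp3 rose, with means of 9.44 TPM at 29 °C and 3.36 TPM at 18 °C (log2 1.26 ± 0.12, adjusted p = 4.47e-12), and Yp1 and Yp2 stayed under 1 TPM in all 6 libraries. Of 6 measured members of the group of storage and yolk proteins, 4 rose and none fell.

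Other leading rises were those of single genes for chitin, sterols and the digestion of bacteria. Cda9 (2R, 17128480 to 17130334), a chitin deacetylase, had 24.5, 27.0 and 25.8 TPM at 29 °C, against 0.800, 0.604 and 0.800 TPM at 18 °C (log2 3.95 ± 0.12, adjusted p = 6.12e-28). Npc2e (3R, 10053332 to 10054348), of a family that binds sterols, had 29.3, 32.4 and 31.9 TPM at 29 °C, against 5.83, 0 and 0.496 TPM at 18 °C (log2 3.89 ± 0.50, adjusted p = 1.77e-08). The lysozyme gene LysB (3L, 1207371 to 1207981), which digests bacteria in the gut, had 191, 128 and 142 TPM at 29 °C, against 10.3, 22.2 and 25.2 TPM at 18 °C (log2 3.00 ± 0.37, adjusted p = 7.21e-09). LysB is close in sequence to LysD and LysE, and reads may have been shared among them. The remaining members of the leading 12 were Hsp22, PGRP-SC1a, PGRP-SC1b, AttA, AttD and att-ORFB, which are described with their groups or with the other strains. Among genes known only by number, the 3 largest rises without overlap between temperatures were those of CG43156 (log2 3.79), CG12256 (3.41) and CG15533 (3.34).

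The falls were led by genes known only by number. CG42782 (2R, 12418797 to 12419395) had 1.71, 3.55 and 2.96 TPM at 29 °C, against 214, 200.3 and 115 TPM at 18 °C (log2 -5.55 ± 0.30, adjusted p = 4.00e-19). CG31832 (2L, 15030928 to 15031750) had 0.619, 1.10 and 1.11 TPM at 29 °C, against 47.9, 38.6 and 42.8 TPM at 18 °C (log2 -4.51 ± 0.21, adjusted p = 1.25e-20). Both were near 0 at 29 °C, and CG13026 followed with log2 -3.07 ± 0.19, adjusted p = 7.62e-17. Among named genes the C-type lectin lectin-33A (2L, 11002072 to 11002738) fell most, with 4.24, 3.10 and 2.40 TPM at 29 °C, against 28.1, 26.9 and 31.0 TPM at 18 °C (log2 -2.83 ± 0.19, adjusted p = 3.15e-16). Eig71Eb, an ecdysone-induced gene, fell by 2.72 on the log2 scale and takeout (to), a clock output linked to feeding, by 2.25. The gene to had 61.4, 58.8 and 58.4 TPM at 29 °C, against 433, 264 and 207 TPM at 18 °C, where library 1 was highest. Myofilin (Mf, 3R, 15170625 to 15181510), a protein of the muscle thick filament, had 208, 209 and 207 TPM at 29 °C, against 946, 964 and 976 TPM at 18 °C (log2 -2.20 ± 0.064, adjusted p = 6.12e-28). Nplp3, a neuropeptide-like precursor, had 86.2, 86.5 and 98.9 TPM at 29 °C, against 349, 350.3 and 383 TPM at 18 °C (log2 -1.98 ± 0.098, adjusted p = 4.07e-20), and CheB38c fell by 1.77. Of the 12, 5 encode seminal fluid proteins (Sfp33A4, Sfp79B, Sfp24Bb, Sfp24Bc and Acp26Aa), which are taken up with the accessory gland, and IM23 is taken up with immunity.

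The inducible heat-shock genes moved both ways, in shares close to those of all genes. Of 17 measured, 5 rose (29.4%), 5 fell (29.4%) and 7 did not pass, with a median change of log2 -0.028. Of all genes tested 26.0% rose and 22.9% fell. Hsp22 (3L, 9372931 to 9374964), which works in the mitochondrial matrix and belongs to the small heat-shock family, had 901, 499 and 784 TPM at 29 °C, against 28.6, 22.6 and 28.5 TPM at 18 °C. The lowest library at 29 °C was still far above the highest at 18 °C, and the change was log2 4.69 ± 0.24, adjusted p = 9.17e-20. The small heat-shock gene l(2)efl (2R, 23684651 to 23685543) had 316, 276 and 284 TPM at 29 °C, against 109, 114 and 134 TPM at 18 °C (log2 1.29 ± 0.088, adjusted p = 7.20e-16). Hsp23 rose by log2 0.52 (adjusted p = 7.24e-07) and Hsp26 by 0.28 (adjusted p = 0.00269), both cytosolic members of the small family. Hsp70Bc, at 1.88, 2.13 and 1.71 TPM at 29 °C and 1.23, 1.35 and 0.549 TPM at 18 °C, passed narrowly (log2 0.53 ± 0.21, adjusted p = 0.0338) and did not pass without library 1 or 2 at 29 °C or library 3 at 18 °C (adjusted p of 0.0634 to 0.228), with a pseudocount of 0.1 TPM (adjusted p = 0.0501) or with quantile normalization (adjusted p = 0.0507).

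The Hsp90 gene Hsp83 and the co-chaperone gene DnaJ-1 went the other way. Hsp83 (3L, 3192969 to 3197059), the abundant cytosolic Hsp90, had 359, 373 and 366 TPM at 29 °C, against 785, 915 and 842 TPM at 18 °C (log2 -1.21 ± 0.053, adjusted p = 1.15e-21). DnaJ-1 (3L, 5750029 to 5752189), the Hsp40 that delivers substrates to Hsp70, had 67.9, 72.7 and 73.0 TPM at 29 °C, against 168, 177 and 171 TPM at 18 °C (log2 -1.26 ± 0.043, adjusted p = 1.57e-25). For both, every library at 29 °C lay far below the lowest at 18 °C, with little spread within a temperature. Hsp27 fell by 0.37 on the log2 scale (adjusted p = 3.17e-05) and Hsp68, an inducible Hsp70 relative, by 0.29 (adjusted p = 0.000855). Hsp67Ba had 6.90, 6.18 and 6.19 TPM at 29 °C, against 7.87, 7.60 and 7.65 TPM at 18 °C (log2 -0.23 ± 0.096, adjusted p = 0.0418), a call that was lost (adjusted p of 0.0681 to 0.113) without any library other than library 1 at 29 °C, and in a fit of only the Mito 1 copy libraries (adjusted p = 0.0579). The 7 members that did not pass were Hsf, at 30.8, 31.2 and 27.8 TPM at 29 °C and 26.9, 29.7 and 32.1 TPM at 18 °C, the co-chaperone stv, Hsp67Bc and the Hsp70 genes Hsp70Ab, Hsp70Ba, Hsp70Bb and Hsp70Bbb. The Hsp70 copies are almost identical in sequence, so reads may be split among them; the highest value of any copy in the 6 libraries was 10.7 TPM (Hsp70Ab, library 3 at 18 °C).

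**Figure D2:**
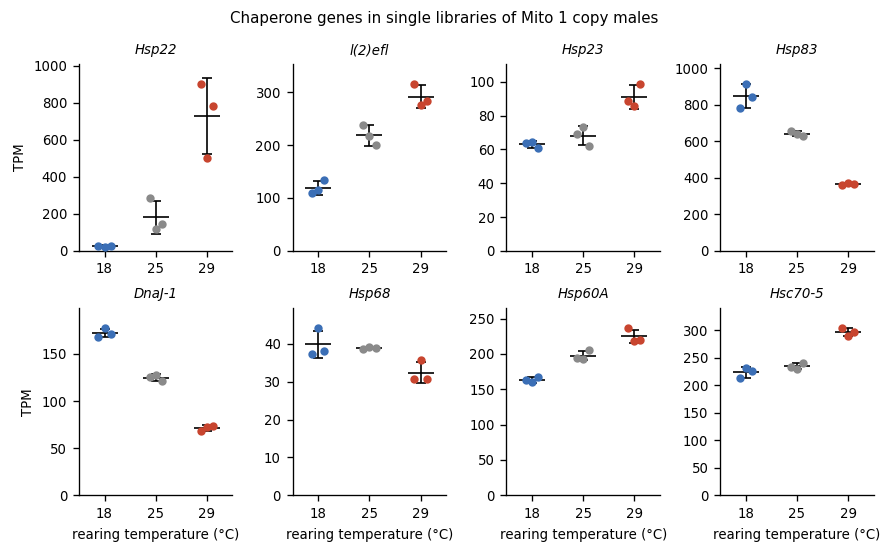
TPM of 8 chaperone genes in each library of Mito 1 copy males (points, 3 per temperature) against rearing temperature in °C, with the mean and SD in black. Hsp22, l(2)efl, Hsp23, Hsp60A and Hsc70-5 are highest at 29 °C, Hsp83, DnaJ-1 and Hsp68 lowest there; each axis starts at 0 and has its own scale.

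Chaperones and proteases of the mitochondria rose in part. Of 18 measured, 6 rose, 2 fell and 10 did not pass; the 33.3% that rose stand beside 26.0% of all genes, and the median was log2 0.067. Apart from Hsp22, the clearest were both main matrix chaperones. Hsp60A (X, 11108482 to 11112308), the mitochondrial chaperonin, had 236, 218 and 220.3 TPM at 29 °C, against 163, 160.0 and 168 TPM at 18 °C (log2 0.46 ± 0.061, adjusted p = 3.68e-08). Hsc70-5 (2R, 14252598 to 14256192), the mitochondrial Hsp70, had 303, 289 and 297 TPM at 29 °C, against 212, 231 and 226 TPM at 18 °C (log2 0.41 ± 0.055, adjusted p = 4.74e-08). In both, the groups do not overlap. The prohibitins of the inner membrane, l(2)37Cc (Phb1) and Phb2, rose by log2 0.20 and 0.22, and the protease HtrA2 by 0.19, the last not passing without library 1 at 18 °C (adjusted p = 0.111) or library 2 at 29 °C (adjusted p = 0.0711). CG4538 (ClpX), the ATPase that feeds the ClpP protease, fell by 0.23 on the log2 scale (adjusted p = 0.000371). Hsp60B, a second Hsp60, fell by 0.23 (adjusted p = 0.0137), which did not pass without library 1 at 29 °C or library 2 or 3 at 18 °C (adjusted p of 0.0572 to 0.101). The proteases Lon, CG5045 (ClpP), YME1L, CG6512 (Afg3l2) and CG2658 (Spg7), the chaperones Trap1, Roe1, Hsp60C and Hsp60D, and l(2)tid did not pass, with changes of log2 -0.042 (Trap1) to 0.16 (Hsp60D). Of 20 genes of the import machinery 4 rose, 6 fell and 10 did not pass: Tom40, the pore of the outer membrane, rose by log2 0.45 (adjusted p = 4.22e-10), and Tim23, the channel of the inner membrane, fell by 0.33 (adjusted p = 2.29e-09).

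In the endoplasmic reticulum (ER), where secreted proteins fold, 11 of 27 genes were higher and 5 lower, with a median of log2 0.097. CaBP1, a disulfide isomerase, had 115, 109 and 109.5 TPM at 29 °C, against 74.3, 76.7 and 75.6 TPM at 18 °C (log2 0.55 ± 0.063, adjusted p = 1.01e-09). Pdi, the main such isomerase, had 509, 481 and 466 TPM at 29 °C, against 359.8, 368 and 384 TPM at 18 °C (log2 0.39 ± 0.046, adjusted p = 2.36e-09). The lectin chaperone Calr rose by log2 0.33, Edem1, which marks misfolded glycoproteins for degradation, by 0.53, the ER Hsp70 Hsc70-3 by 0.27 and the transcription factor Xbp1 by 0.38. The 5 that fell included the stress sensors Ire1 (log2 -0.16, not passing without library 3 at 18 °C, adjusted p = 0.07) and PEK (-0.24). Of 16 constitutive cytosolic chaperones 5 rose, among them Hsc70-4 (log2 0.23) and the chaperonin subunit CCT6 (0.20), and 2 fell, Droj2 and Hsc70-1. In the integrated stress response, 7 of 15 rose and 2 fell. The ATF4 gene crc had 444, 429 and 432 TPM at 29 °C, against 296, 296 and 298 TPM at 18 °C (log2 0.55 ± 0.036, adjusted p = 1.24e-16). Shmt, of serine and folate metabolism, had 132, 114 and 109 TPM at 29 °C, against 63.4, 60.3 and 57.2 TPM at 18 °C (log2 0.95 ± 0.10, adjusted p = 2.93e-10), and aay, of serine synthesis, rose by log2 0.59, while trbl fell by 0.60.

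Genes of respiration were lower at 29 °C. Of 62 nuclear genes of the respiratory chain and ATP synthase 46 (74.2%) fell, 2 rose and 14 did not pass, with a median of log2 -0.27. ATPsynbeta (4, 1031484 to 1034917), the catalytic subunit of ATP synthase, had 1056, 1059 and 1137 TPM at 29 °C, against 2196, 2259.5 and 2205 TPM at 18 °C, with no overlap (log2 -1.03 ± 0.062, adjusted p = 1.15e-17). ND-MLRQ, of complex I, fell by 0.92 on the log2 scale, SdhD, of complex II, by 0.92 and ATPsyngamma by 0.80. The 2 higher genes, COX7A and ND-PDSW (log2 0.12 and 0.13), did not pass with median-ratio size factors (adjusted p of 0.102 and 0.119) or without several single libraries (adjusted p up to 0.125 for COX7A and 0.2 for ND-PDSW). Of 22 genes of the tricarboxylic acid cycle 13 fell and 5 rose (median log2 -0.20). SdhB, SdhC and SdhD, the complex II subunits that are also counted with the respiratory chain, fell by 0.69 to 0.95, and l(1)G0156 (Idh3a), a subunit of isocitrate dehydrogenase, fell by 0.84. Men, Mdh2, Idh, Sucb and Scsalpha rose, by log2 0.17 to 0.25, Sucb not passing without library 2 or 3 at 18 °C (adjusted p of 0.0551 and 0.0677).

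Transcripts of the mitochondrial genome were also lower. Of 13 genes 7 fell, 1 rose and 5 did not pass (median log2 -0.38), and together they held 68190.0 to 79720.0 TPM at 29 °C, against 89150.0 to 94250.0 TPM at 18 °C. Among those not passing, mt:ATPase8, mt:ND4L and mt:ND6 were near the floor, so their change cannot be judged. Their means were 0.64, 1.77 and 1.92 TPM at 29 °C and 0, 1.93 and 1.23 TPM at 18 °C. The mean of mt:ND2 was 17.7 TPM at 29 °C and 13.2 TPM at 18 °C. The gene mt:Cyt-b (mitochondrial genome, 10499 to 11635), of complex III, had 6769, 7548 and 8446 TPM at 29 °C, against 14629, 14572 and 13721 TPM at 18 °C (log2 -0.92 ± 0.086, adjusted p = 6.57e-12). The complex I genes mt:ND1, mt:ND4, mt:ND3 and mt:ND5 fell by 0.81, 0.78, 0.52 and 0.44 on the log2 scale, and the complex IV genes mt:CoII and mt:CoIII by 0.38 and 0.44. The complex IV gene mt:CoI had 22833, 24574 and 25636 TPM at 29 °C, against 24515, 24882 and 23443 TPM at 18 °C, and did not pass (log2 0.0028 ± 0.084, adjusted p = 0.983). The gene mt:ATPase6, of ATP synthase, had 7878, 9316 and 10232 TPM at 29 °C and 8070.4, 7875 and 7215 TPM at 18 °C and passed narrowly as higher with overlapping groups (log2 0.24, adjusted p = 0.0402). Its call was lost with median-ratio size factors (adjusted p = 0.0968), with no filter on low values (adjusted p = 0.0518), in a fit of only the Mito 1 copy libraries (adjusted p = 0.104) and without library 2 or 3 of either temperature (adjusted p of 0.0589 to 0.251). The fall was unequal among genes of the same genome. Against this, 34 of 73 genes for mitochondrial ribosomal proteins, which are encoded in the nucleus and serve to translate these transcripts, rose and 8 fell (median log2 0.17); 4 or 5 fell without library 1 or 2 at 29 °C or library 1 at 18 °C. The gene mRpS22 had 55.7, 49.6 and 52.4 TPM at 29 °C, against 33, 34.0 and 34.2 TPM at 18 °C (log2 0.63 ± 0.063, adjusted p = 5.79e-11), and mRpS31, mRpL16 and mRpS7 rose by log2 0.53, 0.42 and 0.38.

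Glycolysis and the contractile genes of muscle fell beside respiration. Of 19 glycolytic and related genes 13 (68.4%) fell, 2 rose and 4 did not pass (median log2 -0.44). Gapdh1 had 563, 508 and 536 TPM at 29 °C, against 1082, 1058 and 1153 TPM at 18 °C (log2 -1.03 ± 0.067, adjusted p = 1.70e-16). Gpo-1, the mitochondrial glycerol phosphate oxidase that works with glycolysis in flight muscle, had 131, 119 and 125 TPM at 29 °C, against 293, 294 and 319 TPM at 18 °C (log2 -1.26 ± 0.068, adjusted p = 5.54e-19). Pgk fell by 0.94 on the log2 scale and Pglym78 by 0.70. ImpL3, the lactate dehydrogenase, and Treh rose, by log2 0.66 and 0.13, although Treh missed the threshold after quantile normalization (adjusted p = 0.0845) or without library 1 at 18 °C (adjusted p = 0.116). Of 30 contractile genes 23 (76.7%) fell and 1 rose (median log2 -0.43). Beside Mf, the calcium sensors TpnC41C and TpnC25D fell by 1.37 and 1.34, and the actin Act79B had 240.1, 245 and 240.0 TPM at 29 °C, against 552, 616 and 555 TPM at 18 °C (log2 -1.24 ± 0.086, adjusted p = 1.07e-15). The myosin heavy chain Mhc, a defining marker of muscle, had 382, 364 and 339 TPM at 29 °C and 356, 428 and 427 TPM at 18 °C and did not pass (log2 -0.15 ± 0.078, adjusted p = 0.0996), and the 1 higher gene, the actin Act57B (log2 0.19), missed the threshold after quantile normalization (adjusted p = 0.0921), median-ratio size factors (adjusted p = 0.0586), or without library 3 at 29 °C or library 1 at 18 °C (adjusted p of 0.0742 and 0.0905). The 30 genes together held 5983.0 to 6238.0 TPM at 29 °C, against 8386.0 to 8908.0 TPM at 18 °C. Whether a smaller share of muscle RNA bears on the fall of respiratory and glycolytic genes, which muscle expresses strongly, was not tested.

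Genes for making and for degrading proteins were higher at 29 °C. Cytosolic ribosomal protein genes rose in 78 of 93 cases (83.9%) and fell in 3, with a median of log2 0.33. The gene sta had 1413, 1216 and 1335 TPM at 29 °C, against 700.4, 613 and 740.0 TPM at 18 °C (log2 0.95 ± 0.071, adjusted p = 1.28e-14), and RpS29, RpL5 and RpLP0 rose by log2 0.76, 0.66 and 0.64. Of 32 proteasome subunit genes 28 (87.5%) rose and none fell (median log2 0.32). Rpn11, the deubiquitinase of the lid, had 145, 142 and 146 TPM at 29 °C, against 96.2, 104 and 99.2 TPM at 18 °C (log2 0.53 ± 0.046, adjusted p = 8.76e-13). Prosbeta2, a catalytic subunit of the core, had 209, 186 and 193 TPM at 29 °C, against 132, 129 and 129.9 TPM at 18 °C (log2 0.58 ± 0.051, adjusted p = 1.10e-12). Rpn3 and Rpn8 rose by 0.58 and 0.49. In no proteasome gene named here do the groups overlap. Autophagy genes did not share this rise: 2 of 23 rose (Atg3 and Atg4a), 9 fell and 12 did not pass, and Atg8a, whose protein coats the autophagosome, had 396, 380.2 and 404 TPM at 29 °C, against 503, 499 and 493 TPM at 18 °C (log2 -0.34 ± 0.043, adjusted p = 1.37e-08).

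**Figure D3:**
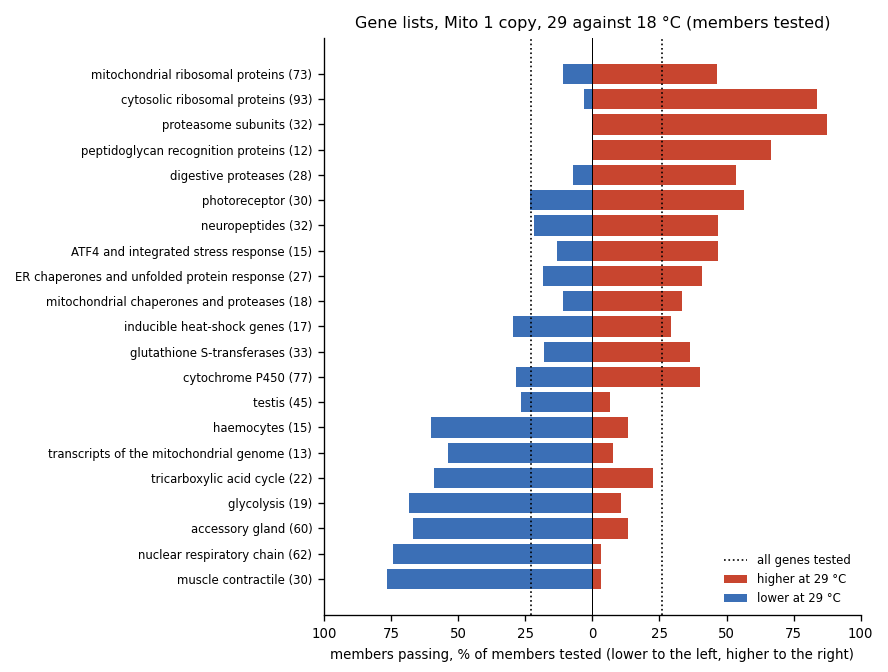
Share of the tested members of 21 gene lists that passed as higher (red, to the right) or lower (blue, to the left) at 29 °C in Mito 1 copy males, in percent, with the number of members tested in parentheses. Dotted lines mark the shares over all genes tested, 26.0% higher and 22.9% lower; proteasome and cytosolic ribosomal genes reach 87.5% and 83.9% higher, muscle and respiratory genes 76.7% and 74.2% lower.

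Immune genes split by class, and single libraries carried part of the difference. Flies sense bacterial peptidoglycan with PGRP proteins, some of which are enzymes that remove it, and answer with antimicrobial peptides. Of 12 PGRP genes 8 (66.7%) rose and none fell (median log2 0.76). The amidase gene PGRP-SC2 had 166, 178 and 135 TPM at 29 °C, against 28.9, 31.3 and 34.0 TPM at 18 °C (log2 2.30 ± 0.28, adjusted p = 3.85e-09). PGRP-LB, another amidase, had 41.6, 46.8 and 49.0 TPM at 29 °C, against 19.4, 16.6 and 14.4 TPM at 18 °C (log2 1.40 ± 0.14, adjusted p = 7.93e-11). The neighbours PGRP-SC1a and PGRP-SC1b, which are close in sequence and may share reads, rose by log2 3.17 and 2.84. The receptor genes PGRP-LC and PGRP-LE did not pass, at log2 -0.023 and 0.094.

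Among 18 genes for antimicrobial peptides 7 rose, 2 fell and 9 missed the threshold (median log2 1.22). AttA had 9.26, 53.8 and 6.06 TPM at 29 °C, against 4.10, 0.104 and 0.311 TPM at 18 °C (log2 3.02 ± 0.98, adjusted p = 0.00948). AttB had 33.3, 101 and 30.7 TPM at 29 °C, against 16.6, 2.53 and 4.94 TPM at 18 °C (log2 2.75 ± 0.78, adjusted p = 0.00342). CecC had 7.33, 46.7 and 4.20 TPM at 29 °C, against 10.6, 0.213 and 0.212 TPM at 18 °C (log2 2.31 ± 0.92, adjusted p = 0.0356). In all 3, library 2 is the highest of 29 °C and library 1 the highest of 18 °C. AttD (3R, 17625268 to 17626086) was less bound to a single library, with 12.2, 15.3 and 5.62 TPM at 29 °C, against 1.77, 0.111 and 0 TPM at 18 °C (log2 2.95 ± 0.70, adjusted p = 0.000485). Without library 2 at 29 °C 3 of the 18 rose, and likewise 3 without library 2 or without library 3 at 18 °C; CecC then did not pass (adjusted p of 0.164 to 0.271), nor did AttA without library 2 at 29 °C (adjusted p = 0.0996) or without library 2 at 18 °C (adjusted p = 0.0501). The 2 that fell, Drsl4 and Drsl5 of the drosomycin family, had little spread, with 345, 314 and 405 TPM of Drsl5 at 29 °C, against 721, 555 and 646 TPM at 18 °C (log2 -0.85 ± 0.096, adjusted p = 8.57e-10), and a change of -1.36 in Drsl4.

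Immune-induced peptides of the Toll pathway were lower. Of 9 genes of the IM and bomanin group 6 fell, 1 rose and 2 did not pass (median log2 -0.43). IM2 (BomS2) had 965, 787 and 858 TPM at 29 °C, against 2366, 1477 and 1661 TPM at 18 °C (log2 -1.05 ± 0.17, adjusted p = 2.09e-06). IM23 (BomBc1) had 14.3, 6.98 and 8.58 TPM at 29 °C, against 131, 19.0 and 19.6 TPM at 18 °C (log2 -1.85 ± 0.48, adjusted p = 0.00141). Library 1 at 18 °C held far more IM23 than the other libraries; without it the change of IM23 was log2 -0.95 and did not pass (adjusted p = 0.0774), and 3 of the 9 genes fell instead of 6. IMPPP (BaraA2) and IM4 fell by 0.97 and 0.43 on the log2 scale. Of 5 Turandot genes, which encode stress peptides of the blood, TotX fell (log2 -1.36 ± 0.26, adjusted p = 2.77e-05) and 4 did not pass. TotC, for one, had 16.8, 61.4 and 9.61 TPM at 29 °C and 196, 35.3 and 28.1 TPM at 18 °C (log2 -1.38 ± 0.64, adjusted p = 0.0693). Its call turned with single libraries, since it passed as lower without library 2 at 29 °C (adjusted p = 0.00942) and without library 2 (adjusted p = 0.0442) or library 3 at 18 °C (adjusted p = 0.0253). Of 15 haemocyte genes 9 fell and 2 rose (median log2 -0.51), 5 falling among those with at least 5 TPM in 3 libraries: the crystal cell enzyme PPO2 had 12.7, 10.7 and 11.7 TPM at 29 °C, against 22.1, 30.2 and 22.8 TPM at 18 °C (log2 -1.02 ± 0.13, adjusted p = 2.47e-08), PPO1 fell by 1.05 and the phagocytic receptor NimC1 by 0.71, while Hml, a defining plasmatocyte gene, did not pass (log2 -0.0057).

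Digestive and detoxifying enzymes were mixed, with more rises than falls. Of 28 digestive proteases 15 (53.6%) rose and 2 fell (median log2 0.34). Jon65Aiv had 2511, 2454 and 2184 TPM at 29 °C, against 1191, 1335 and 1312 TPM at 18 °C (log2 0.90 ± 0.11, adjusted p = 7.00e-09), and epsilonTry had 245, 289.6 and 288 TPM at 29 °C, against 99.8, 94.7 and 68.3 TPM at 18 °C (log2 1.65 ± 0.15, adjusted p = 1.41e-12). Trypsin and Jonah genes come in near-identical copies, and reads may have been shared. All 5 lysozyme genes tested passed, 3 rising and 2 falling. LysD had 1123, 865 and 939 TPM at 29 °C, against 126, 256 and 290.4 TPM at 18 °C (log2 2.20 ± 0.35, adjusted p = 1.72e-06), whereas LysP had 83.5, 70.4 and 73.8 TPM at 29 °C, against 164, 171 and 161 TPM at 18 °C (log2 -1.11 ± 0.12, adjusted p = 3.61e-10). LysX fell by 1.20 (adjusted p = 0.00529), a call lost without library 1 at 18 °C (adjusted p = 0.134) or library 1 at 29 °C (adjusted p = 0.0638). Of 14 maltase and amylase genes 8 rose and 3 fell: the maltase Mal-A4 had 310.2, 303 and 269 TPM at 29 °C, against 72.0, 77.9 and 71.7 TPM at 18 °C (log2 1.98 ± 0.10, adjusted p = 2.40e-19), while Mal-B2 fell by 1.20.

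Among 33 glutathione S-transferases, which conjugate toxins, 12 rose and 6 fell (median log2 0.099). GstD1 had 1376, 1189 and 1283 TPM at 29 °C, against 748, 722 and 719 TPM at 18 °C (log2 0.81 ± 0.059, adjusted p = 4.75e-15), and GstD9 rose by log2 1.17. Cytochrome P450 genes moved both ways, 31 of 77 up and 22 down (median log2 0.002), with Cyp4s3 at log2 1.74 and Cyp6d5 at -1.06. Of 27 antioxidant genes 12 rose and 7 fell; the thioredoxin Trx-2 had 223, 218 and 225 TPM at 29 °C, against 137, 132 and 128 TPM at 18 °C (log2 0.74 ± 0.048, adjusted p = 2.11e-16), catalase (Cat) rose by 0.41, and Gclc, of glutathione synthesis, fell by 0.57. In lipid metabolism 11 of 25 rose and 5 fell, with 7 rising without library 3 at 18 °C or library 1 at 29 °C: apolpp, the precursor of the main lipoprotein of the blood, had 323, 319 and 284 TPM at 29 °C, against 174, 203 and 180.0 TPM at 18 °C (log2 0.73 ± 0.070, adjusted p = 1.41e-11), and the sterol transporter Npc1b rose by log2 2.34. Desat1, the desaturase that makes monounsaturated fatty acids, had 1484, 1296 and 1309 TPM at 29 °C, against 1986, 2129.6 and 2026 TPM at 18 °C (log2 -0.59 ± 0.055, adjusted p = 5.60e-12); with sit and bond, 3 of 5 desaturase and elongase genes fell and 1 rose. In the Malpighian tubules Uro, urate oxidase, had 199.8, 189 and 149 TPM at 29 °C, against 44.5, 42.0 and 33.2 TPM at 18 °C (log2 2.14 ± 0.24, adjusted p = 1.12e-09), and of the 9 tubule genes 3 rose and 4 fell.

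Light-sensing genes of the eye were mostly higher. Of 30 photoreceptor genes 17 (56.7%) rose and 7 fell, 4 without library 3 at 29 °C (median log2 0.30). The rhodopsin gene ninaE, the defining opsin of the outer photoreceptors, had 5761, 5298 and 5334 TPM at 29 °C, against 3756, 3555 and 3749.6 TPM at 18 °C (log2 0.57 ± 0.084, adjusted p = 3.49e-07). Rh4, of ultraviolet-sensitive cells, had 457, 379.9 and 380.0 TPM at 29 °C, against 172, 159 and 157 TPM at 18 °C (log2 1.31 ± 0.080, adjusted p = 2.27e-17). The light-gated channel gene trpl had 431, 358 and 355 TPM at 29 °C, against 130.0, 131 and 131 TPM at 18 °C (log2 1.53 ± 0.092, adjusted p = 1.47e-17). Rh3 rose by log2 0.96 and the scaffold gene inaD fell by 0.93. Among 17 neuronal genes, 1 rose and 6 fell, among them Gad1 (log2 -0.50) and Syt1 (-0.36), and elav, which marks all neurons, had 6.05, 6.41 and 5.0 TPM at 29 °C and 5.37, 5.59 and 5.85 TPM at 18 °C and did not pass.

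Clock, peptide and odour genes also held strong single changes. Of 18 clock genes 8 rose and 3 fell (5 rose with library 2 at 29 °C and library 1 at 18 °C left out together); Clk, which drives the molecular clock, had 30.6, 32.0 and 30.4 TPM at 29 °C, against 10.7, 12.7 and 10.6 TPM at 18 °C (log2 1.38 ± 0.089, adjusted p = 1.36e-16), and the blue-light receptor cry had 142, 135 and 127 TPM at 29 °C, against 75.1, 81.2 and 80.3 TPM at 18 °C (log2 0.76 ± 0.071, adjusted p = 5.83e-12). The sources used here do not give the hour of collection. Of 32 neuropeptide genes 15 rose and 7 fell, with CCAP (log2 1.11) and CCHa2 (0.65) rising and Nplp3 among those that fell. Of 13 receptors for temperature and related senses 2 rose and 5 fell (3 fell without library 2 or 3 at 18 °C, and 2 in a fit of only the Mito 1 copy libraries): wtrw fell by 0.34 and Ir40a rose by log2 0.63. Of 24 insulin signalling genes 3 rose and 6 fell; foxo fell by 0.35 (adjusted p = 1.09e-06). The odorant-binding gene Obp99b had 2706, 2059.7 and 2098 TPM at 29 °C, against 474, 619 and 565 TPM at 18 °C (log2 2.05 ± 0.18, adjusted p = 1.07e-12), and 11 of 42 such genes rose and 14 fell.

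Seminal fluid genes of the male accessory gland fell broadly. Of 60 genes 40 (66.7%) fell, 8 rose and 12 did not pass (median log2 -0.46), and their summed level was 23290.0 to 24610.0 TPM at 29 °C, against 34390.0 to 38630.0 TPM at 18 °C. Sfp24Bb (2L, 3669261 to 3669775) had 313, 287 and 274 TPM at 29 °C, against 1009, 887 and 788 TPM at 18 °C (log2 -1.61 ± 0.10, adjusted p = 1.15e-16). Acp26Aa (ovulin, which stimulates ovulation in the mate) had 108, 108 and 99.4 TPM at 29 °C, against 346, 332 and 258 TPM at 18 °C (log2 -1.55 ± 0.11, adjusted p = 2.65e-15). Acp36DE, a sperm storage protein and a defining gene of the gland, had 289, 293 and 242 TPM at 29 °C, against 507, 585 and 485 TPM at 18 °C (log2 -0.93 ± 0.095, adjusted p = 6.55e-11). Acp36DE, which was not picked by overlap, has none between temperatures. Sfp33A4, Sfp79B and Sfp24Bc fell by 2.09, 2.09 and 1.60 on the log2 scale, and Acp33A and EbpII by 1.36 and 1.35.

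Most testis genes did not pass. Of 45, 12 (26.7%) fell and 3 rose, with a median of log2 -0.087. The protamine gene ProtA had 127, 154 and 139 TPM at 29 °C, against 174, 184 and 164 TPM at 18 °C (log2 -0.31 ± 0.068, adjusted p = 0.000173), and the spermatocyte transcription genes topi and mia changed in opposite directions, by log2 -0.87 and 0.98. Without library 1 at 29 °C 6 of the 45 fell instead of 12. Of 12 genes on the Y chromosome, which act in spermatogenesis, 6 rose and 1 fell (median log2 0.31), among them WDY, with 6.51, 8.60 and 6.60 TPM at 29 °C, against 3.36, 3.95 and 4.34 TPM at 18 °C (log2 0.75 ± 0.11, adjusted p = 1.61e-07). With library 1 at 18 °C and library 2 at 29 °C left out together, 2 of these 12 rose.

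For most genes that changed, the mean at 25 °C lay between those at 18 and 29 °C. Of the 3267 genes higher at 29 °C, the mean at 25 °C lay between the other 2 means for 2433 (74.5%), above both for 643 and below both for 191. Of the 2873 lower genes it lay between for 2211 (77.0%), above both for 424 and below both for 238. A mean in between is favoured, since these genes were picked for their gap between 29 and 18 °C. The steps are 25 against 18 °C and then 29 against 25 °C. Of the higher genes 431 passed as higher in both steps, 1609 in the first alone, 533 in the second alone and 694 in neither. For the lower genes the counts were 405, 758, 1065 and 645, in the same order. At 25 against 18 °C 2732 genes (21.8%) were higher and 1388 (11.1%) lower, and at 29 against 25 °C 1167 (9.30%) were higher and 2116 (16.9%) lower. These splits depend on scaling: with median-ratio size factors 1929 were higher and 2090 lower in the first step, and 1626 and 1652 in the second. With quantile normalization 2091 were higher and 1963 lower in the first step, and 1466 and 1853 in the second. The steps share the libraries of 25 °C, so a high or low value there moves both.

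Lsp1beta rose in both steps, by log2 2.98 at 25 against 18 °C and 2.68 at 29 against 25 °C, and so did Hsp22, by 2.62 and 2.07. Other changes were complete by 25 °C. The lysosomal mannosidase gene LManIII had 7.26, 12.9 and 10.8 TPM at 18 °C, 55.4, 55.6 and 49.9 TPM at 25 °C and 57.5, 50.7 and 52.2 TPM at 29 °C, a rise in the first step (log2 2.30 ± 0.19, adjusted p = 1.00e-12) with log2 -0.0048 in the second. Its neighbour LManIV did likewise, with log2 2.45 and 0.19. Most of the fall of to also came in the first step (log2 -1.69), as did most of that of ATPsynbeta (-0.90). Sfp79B and LysX fell further in that step (log2 -2.33 and -1.82) than at 29 against 18 °C.

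A further set changed late. Lsp2 had 27.7, 24.6 and 17.0 TPM at 18 °C, 10.0, 12.7 and 10.4 TPM at 25 °C and 281, 250.3 and 233 TPM at 29 °C, with all of its rise in the second step (log2 4.41 ± 0.43, adjusted p = 1.60e-10). Npc2e, AttD and CecC followed the same course, with log2 3.58, 3.04 and 3.17 in the second step, the last not passing without library 2 at 29 °C (adjusted p = 0.0981). So did Mal-A4 (2.04), Obp99b (2.07), Shmt (1.03) and GstD9 (1.05), none of which passed in the first. LysP had 164, 171 and 161 TPM at 18 °C, 205, 194 and 192 TPM at 25 °C and 83.5, 70.4 and 73.8 TPM at 29 °C and fell in the second step (log2 -1.37 ± 0.12, adjusted p = 1.63e-11). TotX and MtnB, a metallothionein, also fell late, by 1.37 and 1.71 on the log2 scale.

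For 473 genes both steps passed with opposite signs, 340 with the highest mean at 25 °C and 133 with the lowest there. Over all genes the median change was log2 0.058 in the first step and -0.040 in the second. With median-ratio size factors it was 0.00094 and -9.5e-05. Neither these counts nor the placements of the 25 °C mean were rerun under other scaling. Diedel3, of the Diedel family, had 37, 40.8 and 40.6 TPM at 18 °C, 72.5, 76.2 and 73.3 TPM at 25 °C and 39.8, 37.1 and 34.4 TPM at 29 °C (log2 0.89 and then -0.98). LManV had 32.2, 46.8 and 36.8 TPM at 18 °C, 143, 146 and 128 TPM at 25 °C and 87.1, 78.1 and 83.4 TPM at 29 °C, and Jon65Aii and lectin-24A peaked likewise, the second step of lectin-24A not passing without library 2 at 25 °C (adjusted p = 0.0769) or with a pseudocount of 0.1 TPM (adjusted p = 0.195). The opposite shape was that of tobi, an alpha-glucosidase gene under insulin control, with 492, 330.5 and 317 TPM at 18 °C, 91.1, 79.8 and 182 TPM at 25 °C and 278, 274 and 308 TPM at 29 °C (log2 -1.75 and then 1.37). Frost (Fst), known for its induction in recovery from cold, had 66.9, 51.7 and 49.7 TPM at 18 °C, 23.7, 21.8 and 19.1 TPM at 25 °C and 59.2, 61.4 and 79.4 TPM at 29 °C (log2 -1.33 and then 1.58). For tobi and Fst the 29 against 18 °C difference did not pass, although each step did. GstD8 and Obp56h were lowest at 25 °C too.

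**Figure D4:**
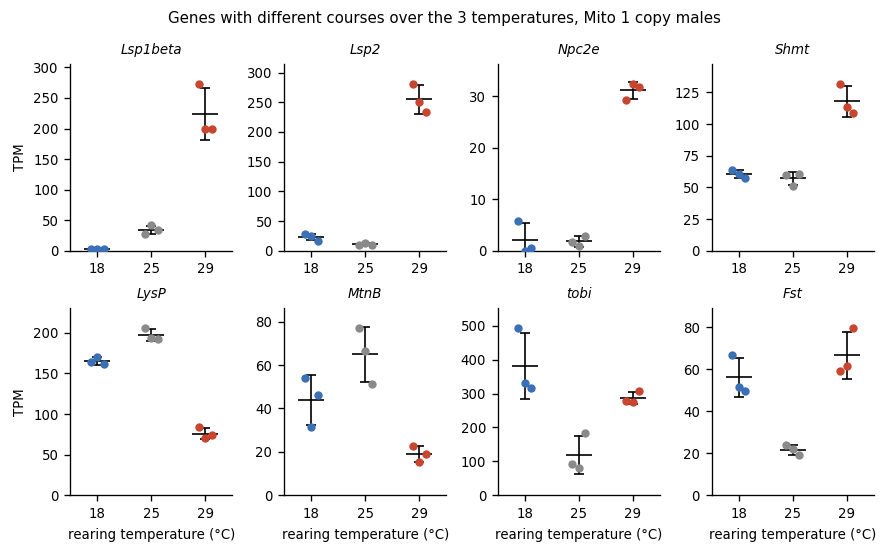
TPM of 8 genes in each library of Mito 1 copy males (points, 3 per temperature) against rearing temperature in °C, with the mean and SD in black. Lsp1beta climbs in both steps, Lsp2, Npc2e and Shmt are highest at 29 °C alone, LysP and MtnB are lowest there, and tobi and Fst are lowest at 25 °C; each axis starts at 0 and has its own scale.

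The question with the other strains is whether the response to temperature differs. Against w1118, which shares no library with Mito 1 copy, the change at 29 against 18 °C was higher in Mito 1 copy for 1642 genes (13.1%) and lower for 1879 (15.0%). Of these 3521 genes, 768 passed in both strains with the same sign and differed in size, 275 passed in both with opposite signs, 869 passed in Mito 1 copy alone, 1528 in w1118 alone and 81 in neither. The labels call w1118 an isogenic control, yet tobi averaged 287 and 379.8 TPM in Mito 1 copy, against 0.319 and 0.248 TPM in w1118 at 29 and 18 °C. The transgene and any other difference in genetic background cannot be told apart.

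Hsp22 answered temperature more strongly in Mito 1 copy. It averaged 728 ± 207 TPM at 29 °C and 26.6 ± 3.43 TPM at 18 °C in Mito 1 copy, against 77.1 ± 4.31 and 12.4 ± 1.5 TPM in w1118 (SD, n = 3 each), a difference of log2 2.14 (adjusted p = 1.02e-05). A rise larger than in Mito 2 copies or Cyto 1 copy was not detected: Mito 2 copies had 739 ± 104 TPM at 29 °C and 32.9 ± 4.84 TPM at 18 °C, and Cyto 1 copy 693 ± 235 and 19.1 ± 0.605 TPM (SD, n = 3 each). The difference from Mito 2 copies was log2 0.24 ± 0.34, adjusted p = 0.675, and that from Cyto 1 copy log2 -0.36 ± 0.34, adjusted p = 0.644. Lsp1beta also rose more than in w1118, with means of 224 and 3.42 TPM in Mito 1 copy, against 40.0 and 2.27 TPM in w1118 at 29 and 18 °C (difference of log2 2.05, adjusted p = 2.68e-05). Lsp1alpha differed by log2 2.50, and its mean in w1118 stayed under 1 TPM at both temperatures.

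The other leading differences from w1118 took several shapes. The cuticle gene Ccp84Ad, listed at 0 in all 3 Mito 1 copy libraries at 18 °C, averaged 0.945 TPM at 29 °C, whereas w1118 had means of 0.808 TPM at 29 °C and 9.13 TPM at 18 °C (difference of log2 3.44). ETH, the ecdysis hormone, fell in both strains and by less in Mito 1 copy (difference of log2 2.22), its fall in Mito 1 copy not passing without library 2 at 29 °C (adjusted p = 0.0757). The attacin-like att-ORFB had 8.77, 3.61 and 18.0 TPM at 29 °C, against 0.349, 0.248 and 0.0617 TPM at 18 °C, and w1118 means of 2.30 and 4.79 TPM (difference of log2 4.31, adjusted p = 0.0158); the difference did not pass without library 1 of w1118 at 29 °C (adjusted p = 0.0536). The rise in Mito 1 copy itself, log2 2.97 ± 0.97, adjusted p = 0.00994, did not pass without library 3 at 29 °C (adjusted p = 0.0603). On the lower side, the maltase gene Mal-B1 averaged 3.09 and 2.65 TPM at 29 and 18 °C in Mito 1 copy, against 82.8 and 9.82 TPM in w1118 (difference of log2 -2.80). The gene to fell in Mito 1 copy (log2 -2.25) and had means of 109.8 and 126 TPM in w1118 (difference of log2 -2.06). Cpr66Cb, lectin-33A, Cyp310a1 and hll differed by log2 -2.01, -2.0, -1.71 and -1.57.

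Mitochondrial chaperones and proteases rose less than in w1118. In Mito 1 copy 6 of the 18 rose and 2 fell (median log2 0.067), against 14 rising and none falling in w1118 (median log2 0.22). Mito 2 copies, with the same transgene, had 12 rising and none falling (median log2 0.19). Cyto 1 copy had 5 rising and 2 falling (median log2 0.075). The difference from Mito 2 copies passed as higher for 1 of the 18 and as lower for 2. The difference from w1118 passed as lower for 8 of them, CG4538 (ClpX), CG5045 (ClpP), Lon, Trap1, Roe1, Hsp60B, Hsp60C and Hsp60D, and as higher for Hsp22 and Hsp60A. CG5045 averaged 213 ± 14.4 TPM at 29 °C and 209 ± 8.39 TPM at 18 °C in Mito 1 copy, against 269 ± 12.1 and 217 ± 6.14 TPM in w1118 (SD, n = 3 each, difference of log2 -0.29, adjusted p = 0.00662). Lon differed by log2 -0.24 (adjusted p = 0.0302), which missed the threshold after quantile normalization (adjusted p = 0.116), and Hsp60A by 0.32 (adjusted p = 0.00508). Quantile normalization left 4 genes with a lower difference, and 5 were left without library 1 at 29 °C or library 2 at 18 °C of Mito 1 copy or without library 1 of w1118 at 29 °C. Of 20 import genes 8 had a lower and none a higher difference. Testis genes moved with this: 28 of 45 had a lower difference and none a higher one; 3 rose with temperature in Mito 1 copy, against 33 in w1118. Likewise 19 of 33 duplicate subunit genes, copies of respiratory and proteasome genes of which many are used in the testis, had a lower difference. Without library 1 of Mito 1 copy at 29 °C the counts were 18 testis and 7 duplicate genes, and without library 1 of w1118 at 29 °C 12 duplicate genes. Against Cyto 1 copy no import, testis or duplicate subunit gene had a difference that passed. In Cyto 1 copy itself 6 testis genes rose and 7 fell. The part of the testis in the chaperone differences was not tested.

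Mitochondrial transcripts differed in the same direction. Of 13, 7 had a lower and 1 a higher difference from w1118 (median of the difference log2 -0.37). The mean of mt:Cyt-b was 7588 TPM at 29 °C and 14307 TPM at 18 °C in Mito 1 copy, against 7782 and 8758 TPM in w1118 (difference of log2 -0.75, adjusted p = 1.80e-05). For this gene the strains were near each other at 29 °C, and Mito 1 copy was higher at 18 °C. Others lay apart at 29 °C too. The gene mt:CoI averaged 24347 and 24280.0 TPM at 29 and 18 °C in Mito 1 copy, against 19366 and 13357 TPM in w1118. The gene mt:ATPase6, which had the higher difference, averaged 9142 and 7720.3 TPM in Mito 1 copy, against 4870.4 and 5946 TPM in w1118, a difference that missed the threshold after quantile normalization (adjusted p = 0.215). The nuclear respiratory genes had 1 higher and 6 lower differences of 62 (3 lower without library 1 and 10 without library 3 of Mito 1 copy at 29 °C).

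Other groups rose more or fell less than in w1118. Proteasome genes had 17 of 32 higher differences and none lower (median of the difference log2 0.17), with Rpn3 at log2 0.28, although 11 were left without library 1 of w1118 at 29 °C and 28 were counted with quantile normalization. Among 27 ER genes 12 had a higher and none a lower difference: Hsc70-3 averaged 274 TPM at 29 °C and 227 TPM at 18 °C in Mito 1 copy, against 243 and 330.3 TPM in w1118 (difference of log2 0.71), and Gp93, the ER Hsp90, differed by 0.70. Fewer of these genes differed from the other transgenic strains. Against Mito 2 copies no proteasome gene had a higher and 1 a lower difference, and ER genes had 2 higher and 3 lower. Against Cyto 1 copy 3 proteasome and 2 ER genes had a higher difference and none a lower one. Cytochrome P450 genes had 28 of 77 higher and 6 lower differences from w1118. Accessory gland genes fell in both strains, and 20 of 60 fell less or rose more in Mito 1 copy, with none the other way; without library 1 of w1118 at 29 °C 13 did. Cytosolic ribosomal genes gave 26 of 93 higher differences, a count that was between 5 and 14 without single libraries of either strain and 6 with median-ratio size factors. Haemocyte genes had 7 of 15 lower differences, among them Hml (log2 -0.72), and 4 without library 2 of Mito 1 copy at 18 °C. Against Cyto 1 copy 3 cytochrome P450 and 3 accessory gland genes had a higher difference and none a lower one. No cytosolic ribosomal or haemocyte gene differed from Cyto 1 copy. Against Mito 2 copies P450 genes had 10 higher and 9 lower differences and accessory gland genes 10 and 5. Cytosolic ribosomal genes had 7 and 3, and haemocyte genes 2 and 1.

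**Figure D5:**
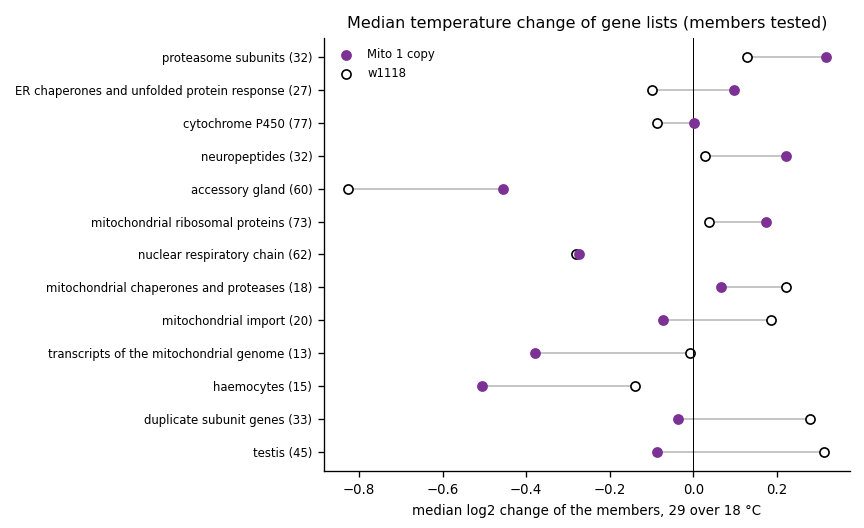
Median log2 change at 29 over 18 °C of the tested members of 13 gene lists, in Mito 1 copy (filled circles) and in w1118 (open circles), with a line between both medians and the number of members in parentheses. The medians of testis genes, of duplicate subunit genes and of mitochondrial import lie below 0 in Mito 1 copy and above 0 in w1118 (that of duplicate subunit genes is above 0 in Mito 1 copy too without its library 1 at 29 °C or library 2 at 18 °C), and those of the nuclear respiratory chain nearly coincide.

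Against the strain with 2 copies of the same transgene, 821 genes (6.54%) had a higher and 1295 (10.3%) a lower change in Mito 1 copy; with quantile normalization the split was 1152 higher and 1004 lower. Without library 1 of Mito 1 copy at 29 °C 448 were higher and 422 lower, and 564 were lower without its library 2 at 18 °C and 598 without library 2 of Mito 2 copies at 18 °C. Most nuclear respiratory genes differed, with 47 of 62 higher and none lower: the median change was log2 -0.27 in Mito 1 copy, against -0.61 in Mito 2 copies, where 59 of the 62 fell. ATPsynbeta averaged 1084 ± 45.9 TPM at 29 °C and 2220.1 ± 34.4 TPM at 18 °C in Mito 1 copy, against 890.0 ± 85.9 and 2403 ± 85.5 TPM in Mito 2 copies (SD, n = 3 each, difference of log2 0.40, adjusted p = 0.00183). Of 19 glycolytic genes 10 and of 30 contractile genes 11 had a higher difference as well, with none lower (5 contractile genes without library 1 at 29 °C or library 2 at 18 °C of Mito 2 copies); the part of muscle in the respiratory difference was not tested. No mitochondrial transcript of 13 had a difference that passed, and 0 to 2 did without single libraries. IM and bomanin genes had 7 of 9 lower differences and none higher (median of the difference log2 -0.98). In Mito 1 copy 6 of them fell and 1 rose, while in Mito 2 copies 4 rose and none fell. Part of the falls in Mito 1 copy rests on its library 1 at 18 °C, as given with those genes. Testis genes had 21 of 45 lower differences, but 2 without library 1 of Mito 1 copy at 29 °C, 4 without library 2 of Mito 2 copies at 18 °C and 6 without library 2 of Mito 1 copy at 18 °C. Of single genes, PGRP-SC1a (log2 2.17), TotA (1.97) and att-ORFB (4.60) had the largest higher differences and SPH93 (-3.86), IM23 (-2.90) and Cyp310a1 (-2.08) the largest lower ones. The difference in att-ORFB did not pass without library 2 of Mito 2 copies at 18 °C (adjusted p = 0.0575). The difference in PGRP-SC1a was not seen with a pseudocount of 0.1 (log2 0.14, adjusted p = 0.937). That in SPH93, a serine protease homologue, rests on library 1 at 18 °C: Mito 1 copy had 0.842, 0.431 and 0.195 TPM at 29 °C, against 92.5, 0.778 and 0.568 TPM at 18 °C; without that library it was log2 -1.93 (adjusted p = 0.188), and without library 1 of Mito 2 copies at 29 °C log2 -2.55 (adjusted p = 0.15). It did not pass in a fit of only the libraries of both strains (adjusted p = 0.115), nor without library 1 or 3 of Mito 1 copy at 29 °C or library 2 or 3 of Mito 2 copies at 18 °C (adjusted p of 0.0534 to 0.0596).

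Against Cyto 1 copy, whose protein is directed elsewhere in the cell, far fewer genes differed: 205 (1.63%) higher and 127 (1.01%) lower, beside 2065 genes at an unadjusted p under 0.05. Single libraries left out gave 113 to 260 higher and 73 to 208 lower, and median-ratio size factors 319 and 114. Of 17 heat-shock genes 1 passed, and of 18 mitochondrial chaperone genes none did (2 as higher with median-ratio size factors). Of 13 transcripts of the mitochondrial genome 5 had a lower difference and none a higher (median log2 -0.47), a count that was 1 in a fit of only the libraries of both strains or without library 1 of Mito 1 copy at 29 °C, 2 without library 2 of Cyto 1 copy at 29 °C or its library 1 at 18 °C, and 3 with quantile normalization or median-ratio size factors: mt:Cyt-b differed by log2 -0.49 (adjusted p = 0.017), with means of 7588 and 14307 TPM in Mito 1 copy, against 8142 and 10898 TPM in Cyto 1 copy at 29 and 18 °C. Of 30 contractile genes 6 and of 28 digestive proteases 4 had a lower difference and none a higher one, while 5 of 33 glutathione S-transferases had a higher difference and none a lower one. TotA had the largest higher difference, with means of 172 and 263 TPM in Mito 1 copy, against 188 and 1763 TPM in Cyto 1 copy (log2 2.72, adjusted p = 0.00325). Lsp2 (log2 2.43) and the eggshell gene Cp15 (1.79) followed, both not passing without several single libraries (adjusted p of 0.053 to 0.0708 for Lsp2 and 0.0523 to 0.0652 for Cp15). Jon66Ci (-2.98), Yp2 (-2.35) and Yp1 (-2.29) had the largest lower differences. The yolk genes averaged 9.29 TPM (Yp1) and 8.17 TPM (Yp2) in Cyto 1 copy at 29 °C and under 1 TPM in Mito 1 copy at both temperatures.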

How the data were processed

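RNA of whole 10-day-old males was extracted with TRIzol and made into TruSeq RNA v2 libraries, per the labels' protocols. The authors deposited a single table of TPM, in which each of the 54 libraries sums to the same total; BDGP6 and dm6 are named as builds per the submitters' processing notes, and the sources used here do not state the aligner, counter, annotation or number of reads. Positions come from the BDGP6 gene annotation, matched by symbol or older symbol for 12511 of the tested genes (99.6%).

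TPM were tested as log2(TPM + 1) with limma 3.58.1 (trend) in R 4.3.3: 1 fit over all 54 libraries with 18 group means and 36 residual degrees of freedom, on those 12555 of 13926 genes that reached 1 TPM in 3 or more libraries. Tests were two-sided, with Benjamini-Hochberg adjustment over all genes at 0.05. A log2 change on this scale understates that of low genes. The script was tested on simulated data. No identical libraries were found within a group, and libraries of different groups were not compared for identity. The labels do not say that libraries come from separate cultures, so the spread behind every p-value is that among these libraries and may be technical.

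Members and gene lists were chosen with earlier results of these data known. Named genes are the 12 largest rises and 12 largest falls whose libraries do not overlap and which reach a mean of 5 TPM in either group, 3 and 3 CG numbers, 4 and 4 for each step and for opposite steps, 6 and 6 for the difference from w1118, 3 and 3 for each other strain, and per list up to 4 members with the smallest adjusted p, with all heat-shock and mitochondrial chaperone genes and members that go against their list. Others, such as defining tissue markers (Mhc, elav, Hml, ninaE, Acp36DE) and further list members (GstD1, Hsc70-3, Gp93, Xbp1, Ire1, PEK, PPO1, NimC1), fall outside this rule and were chosen after their values were seen. Alternatives were a pseudocount of 0.1 TPM, no filter, a filter of 5 TPM, quantile normalization, median-ratio size factors, a replicate block, the libraries of the compared strains alone, and each library left out in turn.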

Additional observations from a re-analysis of the deposited data

Results flagged for a closer look

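The change at 29 against 18 °C differed between Mito 1 copy and another strain, by a test of the difference itself in limma, for 1642 genes upward and 1879 downward against w1118, for 821 and 1295 against Mito 2 copies, and for 205 and 127 against Cyto 1 copy. Each value below is the log2 change in Mito 1 copy minus that in the other strain, for the genes named by the rule given with the methods.

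Against w1118 the higher differences were those of att-ORFB (4.31), Ccp84Ad (3.44), Lsp1alpha (2.5), ETH (2.22), Hsp22 (2.14) and Lsp1beta (2.05). The lower ones were those of Mal-B1 (-2.80), to (-2.06), Cpr66Cb (-2.01), lectin-33A (-2.0), Cyp310a1 (-1.71) and hll (-1.57).

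Against Mito 2 copies the higher differences were those of att-ORFB (4.60), PGRP-SC1a (2.17) and TotA (1.97), and the lower ones those of SPH93 (-3.86), IM23 (-2.90) and Cyp310a1 (-2.08). Library 1 of Mito 1 copy at 18 °C was the highest of its group in SPH93 and IM23. Against Cyto 1 copy the higher differences were those of TotA (2.72), Lsp2 (2.43) and Cp15 (1.79), and the lower ones those of Jon66Ci (-2.98), Yp2 (-2.35) and Yp1 (-2.29).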

How the results depend on the processing

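With median-ratio size factors, 2090 genes were lower at 25 against 18 °C (1388 as reported) and 319 had a higher difference from Cyto 1 copy (205 as reported, with 73.7% instead of 61.7% of all calls higher). With only the libraries of the strains compared, 1390 genes were lower at 29 against 25 °C (2116 as reported) and 79 had a lower difference from Cyto 1 copy (127 as reported); with library 1 at 18 °C and library 2 at 29 °C left out together, chosen after seeing the data, 249 did. The cause was not tested. Leaving out 1 library at a time gave 2786 to 3127 higher and 2395 to 2910 lower genes at 29 against 18 °C, 2069 to 2691 and 1135 to 1301 at 25 against 18 °C, and 854 to 1038 and 1471 to 1957 at 29 against 25 °C. For the differences it gave 1115 to 1785 higher and 1294 to 1919 lower against w1118, 448 to 873 and 422 to 1611 against Mito 2 copies (448 and 422 without library 1 of Mito 1 copy at 29 °C, 564 lower without its library 2 at 18 °C, 598 lower without library 2 of Mito 2 copies at 18 °C), and 113 to 260 and 73 to 208 against Cyto 1 copy.

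Replicate numbers did not pair the libraries: the deviations of same-numbered libraries at 29 and 18 °C correlated across genes with r of -0.112, -0.0044 and -0.045. With the replicate block 3274 genes were higher and 2873 lower at 29 against 18 °C, and CecC did not pass (adjusted p = 0.0546). Of the calls at 29 against 18 °C, 99.3% were kept with a pseudocount of 0.1 TPM, 88.8% with the filter of 5 TPM, 96.1% with quantile normalization and 82.7% with the 2 libraries left out. No call of a gene named by the rule changed sign under the alternatives run. The larger side did change at 29 against 18 °C (3069 higher and 3315 lower with quantile normalization, 3104 and 3216 with median-ratio size factors), at 25 against 18 °C with median-ratio size factors (1929 and 2090) and in the difference from Mito 2 copies with quantile normalization (1152 and 1004). It also turned without single libraries, at 29 against 18 °C without library 1 at 18 °C (2786 and 2910). The difference from w1118 turned without library 2 of Mito 1 copy at 18 °C (1507 and 1490). That from Mito 2 copies did without library 1 of Mito 1 copy at 29 °C (448 and 422) or library 2 of either strain at 18 °C. That from Cyto 1 copy did without library 1 of Mito 1 copy at 18 °C (193 and 208) or 29 °C (120 and 121). Several list medians near 0 changed sign too, and that of ovary and eggshell genes was log2 0.19 instead of -0.12 with the filter of 5 TPM. TPM hold no read counts, so the precision of genes near 1 TPM cannot be judged.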

Other observations

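Chitin-handling and cuticle genes held strong changes beside Cda9. The chitinase gene Cht9 had 53.8, 53.4 and 52.9 TPM at 29 °C, against 8.96, 9.93 and 7.34 TPM at 18 °C (log2 2.49 ± 0.14, adjusted p = 1.26e-18), and of 15 chitin deacetylase and chitinase genes 7 rose and 4 fell. Of 56 cuticle protein genes 11 rose (4 among those with at least 5 TPM in 3 libraries) and 17 fell: Cpr72Ec had 39.6, 37.2 and 44.0 TPM at 29 °C, against 10.8, 10.0 and 9.62 TPM at 18 °C (log2 1.89 ± 0.14, adjusted p = 2.43e-14), whereas Cpr62Bb had 25.9, 26.0 and 21.9 TPM at 29 °C, against 56.4, 61.8 and 65.6 TPM at 18 °C (log2 -1.28 ± 0.091, adjusted p = 1.98e-15). Among 20 eye pigment genes, 7 rose and 5 fell (3 without library 3 at 29 °C); v, of ommochrome synthesis, rose by log2 0.80 and Pu, of pteridine synthesis, fell by 0.94. Of 33 subunit genes of the vacuolar ATPase, the proton pump of acidic compartments, 6 rose (3 without library 1 at 29 °C or library 1 at 18 °C) and 8 fell, and Vha44 fell by 0.39.

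Replication and cell cycle genes moved both ways, 8 of 19 higher (4 among those with at least 5 TPM in 3 libraries) and 6 lower, with CycA at log2 -0.52 and aurB at 0.36. Of 12 methuselah-like receptor genes 2 rose and 3 fell: mthl14 had 24.5, 27.8 and 25.6 TPM at 29 °C, against 13.1, 13.0 and 12.6 TPM at 18 °C (log2 0.96 ± 0.061, adjusted p = 1.13e-16). By chromosome, 13 of the 79 genes tested on chromosome 4 rose and 30 fell (median log2 -0.085), and 11 of 18 on the Y rose and 1 fell (median log2 0.35), while on X 486 of 1955 rose and 378 fell.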
